A study of Mus musculus with 18 samples.

Results

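The bile acid and drug transporters of the hepatocyte membrane were followed in mouse liver as 10 members, namely the uptake carriers Slc10a1, Slco1a1, Slco1a4, Slco1b2 and Slc22a7, the canalicular pumps Abcb11, Abcb4 and Abcc2, and the sinusoidal pumps Abcc3 and Abcc4. The members were chosen by gene symbol, with earlier results of these data known. All 10 were found among the 31099 loci with a gene identifier, and all 10 passed the filter on low counts that left 14241 genes for testing. In WT livers both drug diets lowered the mRNA of all 5 uptake carriers and of the bile salt pump Abcb11. They raised Abcb4 and Abcc4, and fenofibrate also raised Abcc3. On fenofibrate 17.6% of all tested genes were called lower in WT and 19.3% higher, and on the other drug diet 19% and 20.2%. Scaled by library totals instead, the calls of Slc10a1 on both diets and of Abcb11 on fenofibrate were lost. In Ppara-null livers 0 of the 10 members passed the test on either diet, near the shares of all tested genes there. On fenofibrate 0.997% of all tested genes were called higher and 0.548% lower, and on the other drug diet 0.133% and 0.105%. The log2 change of Abcc3 on fenofibrate was 0.67 ± 0.18 (SE) in WT and 0.50 ± 0.18 in Ppara-null livers. These 2 changes were not called different from each other (0.16 ± 0.25, edgeR adjusted p = 0.69).

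The mice were wild type (WT, Ppara+/+) or Ppara-null (Ppara-/-), 8 weeks old, on a mixed background of C57BL/6 and SV129. They were fed for 48 h with a control diet, a diet holding 0.1% Wy14,643 (Wy) or a diet holding 0.5% fenofibrate, both of which are agonists of PPARA. Each of the 6 groups had 3 libraries of liver polyadenylated RNA, each made from 3 to 5 pooled livers, so the spread given here is between pools and not between mice. No source used here gives the sex of the mice.

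Hepatocytes take bile acids and organic anions from sinusoidal blood, pass bile salts, phospholipid and conjugates across the canalicular membrane into bile, and can return conjugates to the blood through sinusoidal pumps. PPARA is a nuclear receptor that binds DNA with RXR and turns on genes of fatty acid oxidation when a fibrate is bound. Bile acid transport is under the nuclear receptors FXR (Nr1h4), SHP (Nr0b2), PXR (Nr1i2) and CAR (Nr1i3), and the stress factor NRF2 (Nfe2l2) is known to act on several sinusoidal pumps. In bulk liver RNA, fewer cells of a type and less RNA per cell cannot be told apart.

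Of the 10 members 3 lie side by side on 1 stretch of chromosome 6. These are Slco1b2 (chr6:141629464-141686646, plus strand), Slco1a4 (chr6:141805440-141856283, minus strand) and Slco1a1 (chr6:141907281-141946962, minus strand), in mm10 as the files give them. The others lie on separate chromosomes: Slc10a1 at chr12:80953185-80968700, Slc22a7 at chr17:46432185-46438477, Abcb11 at chr2:69238282-69342844, Abcb4 at chr5:8893598-8959226, Abcc2 at chr19:43782192-43840740, Abcc3 at chr11:94343294-94393019 and Abcc4 at chr14:118482692-118707533. RefSeq promoter entries (GRCm38.p6, 250 bases before to 50 after a gene's start) matched 8 of the 10 members with 10 entries, and Slc22a7 and Abcc3 had none. The promoters shown are 5 of them, those of the 3 neighbouring uptake carriers that moved together and of the pumps Abcb4 and Abcc4 that moved the other way. Capitals mark AGGTCA, the core bound by many nuclear receptors, or TGACNNNGC, the core of the element that NRF2 binds, on either strand.
Slco1b2, chr6:141629268-141629567, plus strand: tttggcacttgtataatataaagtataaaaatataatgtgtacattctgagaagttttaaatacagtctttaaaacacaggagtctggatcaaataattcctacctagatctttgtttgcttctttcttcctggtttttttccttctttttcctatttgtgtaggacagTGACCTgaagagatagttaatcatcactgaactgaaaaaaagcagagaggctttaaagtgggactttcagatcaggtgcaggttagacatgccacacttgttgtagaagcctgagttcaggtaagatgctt
Slco1a4, chr6:141856171-141856470, minus strand: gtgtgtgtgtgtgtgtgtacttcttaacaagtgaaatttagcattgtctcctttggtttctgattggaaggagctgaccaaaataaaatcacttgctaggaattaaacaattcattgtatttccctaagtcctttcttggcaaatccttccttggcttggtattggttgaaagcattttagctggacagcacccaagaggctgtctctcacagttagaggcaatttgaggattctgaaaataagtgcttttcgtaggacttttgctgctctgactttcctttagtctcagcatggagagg
Slco1a1, chr6:141946913-141947212, minus strand: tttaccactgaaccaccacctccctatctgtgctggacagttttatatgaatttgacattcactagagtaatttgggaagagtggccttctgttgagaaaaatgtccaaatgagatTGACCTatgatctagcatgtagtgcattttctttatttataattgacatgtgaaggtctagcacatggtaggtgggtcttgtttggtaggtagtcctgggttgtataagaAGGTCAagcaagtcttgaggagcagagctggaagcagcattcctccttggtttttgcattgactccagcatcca
Abcb4, chr5:8893471-8893770, plus strand: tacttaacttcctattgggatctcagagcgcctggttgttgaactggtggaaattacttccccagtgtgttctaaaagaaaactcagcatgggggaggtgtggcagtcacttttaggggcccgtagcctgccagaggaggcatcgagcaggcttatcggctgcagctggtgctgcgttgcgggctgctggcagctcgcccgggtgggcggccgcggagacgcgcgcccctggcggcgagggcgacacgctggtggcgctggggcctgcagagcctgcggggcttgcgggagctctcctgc
Abcc4, chr14:118706170-118706469, minus strand: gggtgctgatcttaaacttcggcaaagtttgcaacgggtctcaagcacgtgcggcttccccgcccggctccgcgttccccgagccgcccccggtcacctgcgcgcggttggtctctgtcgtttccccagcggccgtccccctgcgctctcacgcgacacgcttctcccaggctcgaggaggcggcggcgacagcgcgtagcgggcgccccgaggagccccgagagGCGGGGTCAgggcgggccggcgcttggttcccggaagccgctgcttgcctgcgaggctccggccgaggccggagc

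The AGGTCA core stood in 5 of the 10 member entries, against 16.3% of all 32851 RefSeq promoter entries. It was found in Slco1a1 at 134 and 24 bases before the start, in Slco1b2 at 81, in Abcb11 at 56, in Abcc2 at 49 and in 1 of the entries of Slc10a1 at 87. The TGACNNNGC core stood in 3 of the 10 entries, against 12.4% of all entries. Those 3 were Abcc2 and both entries of Abcc4. No match of the cores overlapped another in these entries. The direct repeat AGGTCANAGGTCA, the arrangement that PPARA with RXR prefers, was in 0 of the 10 entries and in 0.0396% of all entries. The inverted repeat AGGTCANTGACCT, preferred by FXR, was in 0 of the 10 and in 0.00913% of all. The Slco1a4 and Abcb4 windows held none of these motifs. A match describes letters in a window of 300 bases and is not evidence of binding.

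Depth ran from 68.858 to 150.695 M counts per library, and from 31.758 to 44.468 M without 25 major urinary protein (Mup) loci. The Mup share was 69.2% to 73.5% in WT control, 50.9% to 56.2% in WT Wy and 48.8% to 59.2% in WT fenofibrate libraries, and 60.0% to 76.6% in Ppara-null libraries. Levels are therefore given as CPM, read counts scaled to library size, after TMM scaling, which sets the typical gene level between libraries. Scaled by library totals instead, the median gene moved by 0.79 on the log2 scale with Wy and 0.82 with fenofibrate in WT, so changes below are relative to the typical gene. The targeted gene matched the labels: Ppara stood at 50.5 to 83.5 CPM in the 9 WT libraries and at 12.3 to 20.2 CPM in the 9 Ppara-null libraries. One library, WT Wy 3, held 321 counts of the X-inactivation transcript Xist, against 1 to 7 in each of the other 17, with the Y-linked Ddx3y at 14.9 CPM in it and 12.7 to 16.8 CPM in all 18. Leaving this library out ended 1 member call, that of Abcb11 between the drugs in WT, and shifted other values. Without it the Wy change in WT was -4.24 for Slc22a7, -1.36 for Abcb11 and 0.43 for Abcc3 (edgeR adjusted p = 0.12). The Wy interaction of Abcb11, defined below, was then -1.05. For Slco1a1 and for Abcb11 between drugs the values without it are given below.

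Per kilobase of exon, which lets genes be ranked, WT control livers held most Slc10a1 (113 ± 8.84 CPM per kb, mean ± SD, n = 3) and Slco1b2 (97.6 ± 9.90), and these overlapped between libraries. Slco1a1 followed at 40.5 ± 1.15, apart from its neighbours. Abcb11 (23.5 ± 3.49), Abcc3 (18.9 ± 4.36) and Abcc2 (13.7 ± 3.08) came next, each overlapping the next in the order. Abcb4 stood at 9.28 ± 1.21, below them. Slc22a7 (4.00 ± 0.864) and Slco1a4 (3.49 ± 0.450) overlapped, and Abcc4 was lowest at 0.102 ± 0.00820. In the treated WT livers Slc10a1 and Slco1b2 still ranked first and second, Abcc3 and Abcb4 came next (Abcb4 overlapping Abcc2 with fenofibrate), and Slco1a4 and Slc22a7 dropped to the last places, below Abcc4. In Ppara-null control livers Slco1a4 ranked above Slc22a7, Abcb4 and Abcc4, without overlap with Slc22a7 below it.

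**Figure D1:**
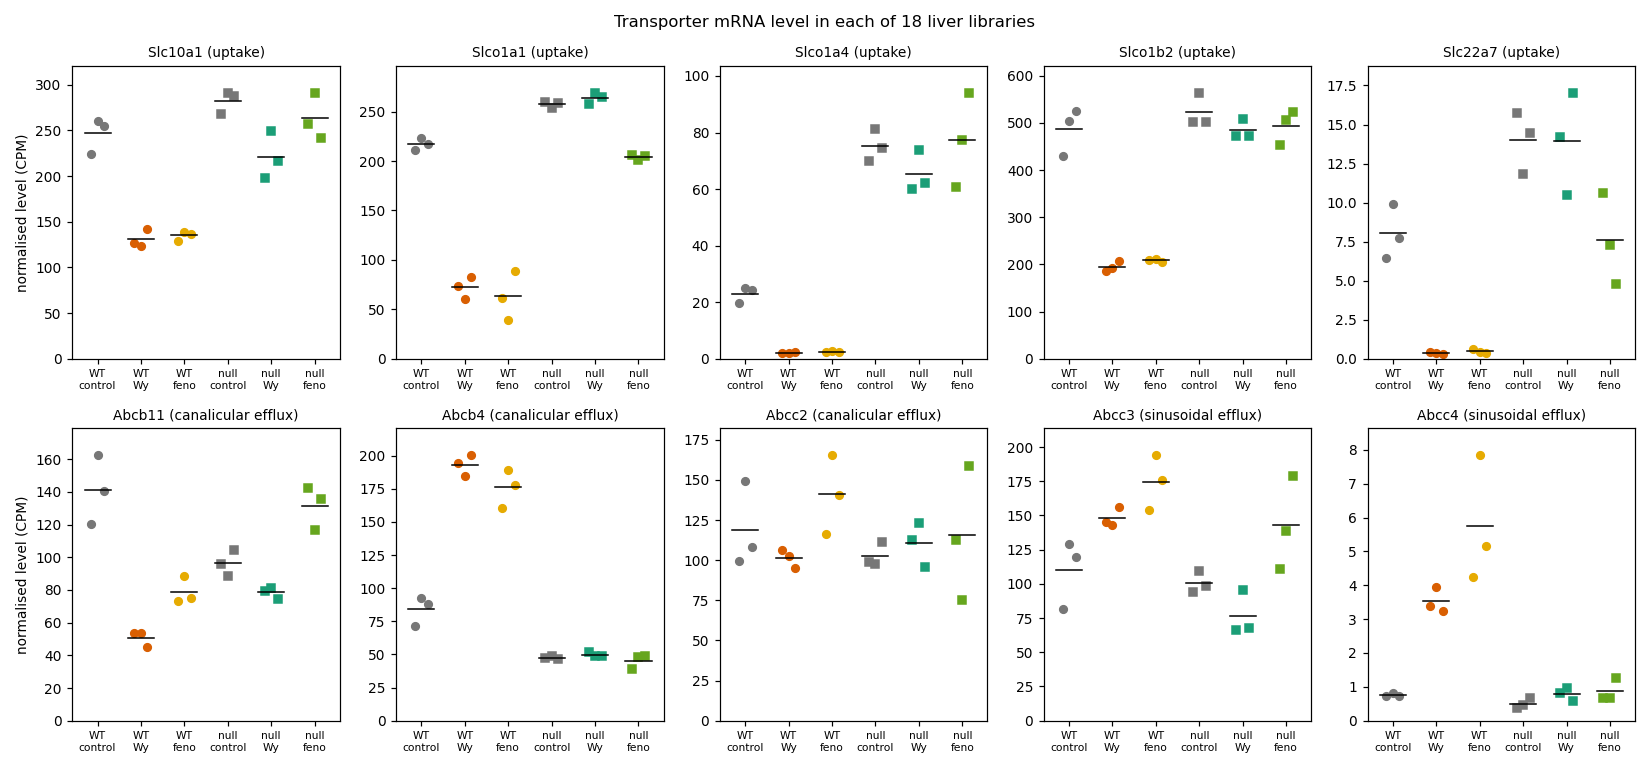
Level of each member (CPM after TMM scaling, linear axis from 0) in each of 18 libraries, by genotype and diet; points are libraries and black lines are means of 3. Slco1a4 sits between 1.98 and 2.61 CPM in the 6 treated WT libraries, below every other library, while Abcb4 sits between 161 and 201 CPM there, above every other library.

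Uptake carriers came first. Slco1a4 (OATP1A4, gene ID 28250), a sinusoidal carrier of organic anions and bile acids, stood at 19.6, 24.9 and 24.4 CPM in WT control. It stood at 1.98, 2.04 and 2.30 CPM with Wy and at 2.29, 2.61 and 2.51 CPM with fenofibrate. All 6 treated libraries lay far below the 3 controls. The fall was 10.9-fold with Wy (log2 fold change -3.44 ± 0.15, SE, adjusted p = 3.4e-12) and 9.29-fold with fenofibrate (-3.22 ± 0.15, adjusted p = 8.7e-12). In Ppara-null livers the levels were 69.8, 81.2 and 74.6 CPM on control, 60.1, 73.7 and 62.3 CPM on Wy, and 60.7, 77.4 and 94.0 CPM on fenofibrate. The 3 null groups overlapped one another and lay above all WT libraries.

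Slc22a7 (OAT2, gene ID 108114), a carrier of organic anions and nucleotides, stood at 6.48, 9.91 and 7.72 CPM in WT control. It stood at 0.454, 0.365 and 0.314 CPM with Wy and at 0.636, 0.451 and 0.364 CPM with fenofibrate, from 36 to 75 counts a library. No treated library came near the controls. It fell 21.1-fold with Wy (-4.40 ± 0.30, adjusted p = 1.5e-09) and 16.5-fold with fenofibrate (-4.04 ± 0.30, adjusted p = 4.0e-09), the largest falls among the 10 members in both comparisons. In Ppara-null livers it stood at 15.8, 11.8 and 14.5 CPM on control, 14.2, 10.5 and 17.02 CPM on Wy, and 10.6, 7.31 and 4.78 CPM on fenofibrate. The fenofibrate libraries lay below the null controls without overlap, but the change (-0.89 ± 0.24) did not pass (adjusted p = 0.072).

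Slco1a1 (OATP1A1, gene ID 28248), an organic anion carrier that is male-predominant in mouse liver, stood at 211, 224 and 217 CPM in WT control. It stood at 73.5, 60.6 and 83.0 CPM with Wy and at 61.2, 39.5 and 88.8 CPM with fenofibrate. Treated libraries lay well below the controls but spread more than them. The falls were 3.01-fold (-1.59 ± 0.18, adjusted p = 1.5e-06) and 3.44-fold (-1.78 ± 0.19, adjusted p = 4.1e-07). Without WT Wy 3 the Wy change was -1.66 (adjusted p = 1.1e-05). In Ppara-null livers the level was 254 to 259 CPM on control, 257 to 269 on Wy and 201 to 206 on fenofibrate, the last below the null controls in every library without passing (-0.34 ± 0.18, adjusted p = 0.39).

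Slco1b2 (OATP1B2, gene ID 28253), the main sinusoidal carrier for unconjugated bile acids and many drugs in mouse, stood at 430.5, 503 and 525 CPM in WT control. It stood at 185, 192 and 207 CPM with Wy and at 208, 211 and 206 CPM with fenofibrate. The treated libraries agreed closely with each other and did not overlap the controls. It fell 2.50-fold with Wy (-1.32 ± 0.09, adjusted p = 1.1e-09) and 2.33-fold with fenofibrate (-1.22 ± 0.09, adjusted p = 3.8e-09). The 9 Ppara-null libraries lay between 454 and 563 CPM, and the 3 null groups overlapped.

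Slc10a1 (NTCP, gene ID 20493), the sodium-dependent carrier of conjugated bile acids, stood at 225, 260.2 and 255 CPM in WT control. It stood at 127, 124 and 142 CPM with Wy and at 129, 139 and 137 CPM with fenofibrate. It was the uptake carrier with the smallest falls, 1.89-fold (-0.92 ± 0.10, adjusted p = 5.5e-07) and 1.83-fold (-0.87 ± 0.10, adjusted p = 1.2e-06). Under library totals these calls were lost (-0.11 and -0.06, adjusted p = 0.57 and 0.76), where relative to the median gene the values were -0.90 and -0.88. In Ppara-null livers it stood at 268, 291 and 288 CPM on control, 198, 249 and 217 on Wy and 257, 291 and 242 on fenofibrate. The Wy libraries lay below the null controls without overlap, at -0.35 ± 0.10 (adjusted p = 0.12).

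In all, 5 of 5 uptake carriers fell with Wy, against 19% of all tested genes called lower, and 5 of 5 fell with fenofibrate, against 17.6%. Their median log2 fold change was -1.59 with Wy and -1.78 with fenofibrate, beside -0.02 and 0.01 over all genes tested. Both comparisons share the 3 WT control libraries. Hepatocyte marker mRNA moved with them: of 8 markers 6 fell and 0 rose on each diet, and their summed level was 53380 to 55165 CPM in WT control, 22866 to 27198 with Wy and 21836 to 23082 with fenofibrate. Within that list Hnf4a, a defining hepatocyte factor, stood at 148 ± 8.94, 165 ± 6.45 and 142 ± 25.9 CPM (SD, n = 3) in the 3 WT groups and passed in neither comparison. In Ppara-null livers the summed marker level was 52911 to 60814 CPM on control, 49969 to 51056 on Wy and 39995 to 46257 on fenofibrate. Of the 8 markers 0 were called there on Wy, and 2 lower and 0 higher on fenofibrate (0.548% and 0.997% of all tested genes). The 5 uptake carriers had a median log2 change there of -0.11 with Wy and -0.10 with fenofibrate, and 0 passed. The part of these markers in the fall of the carriers was not tested.

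**Figure D2:**
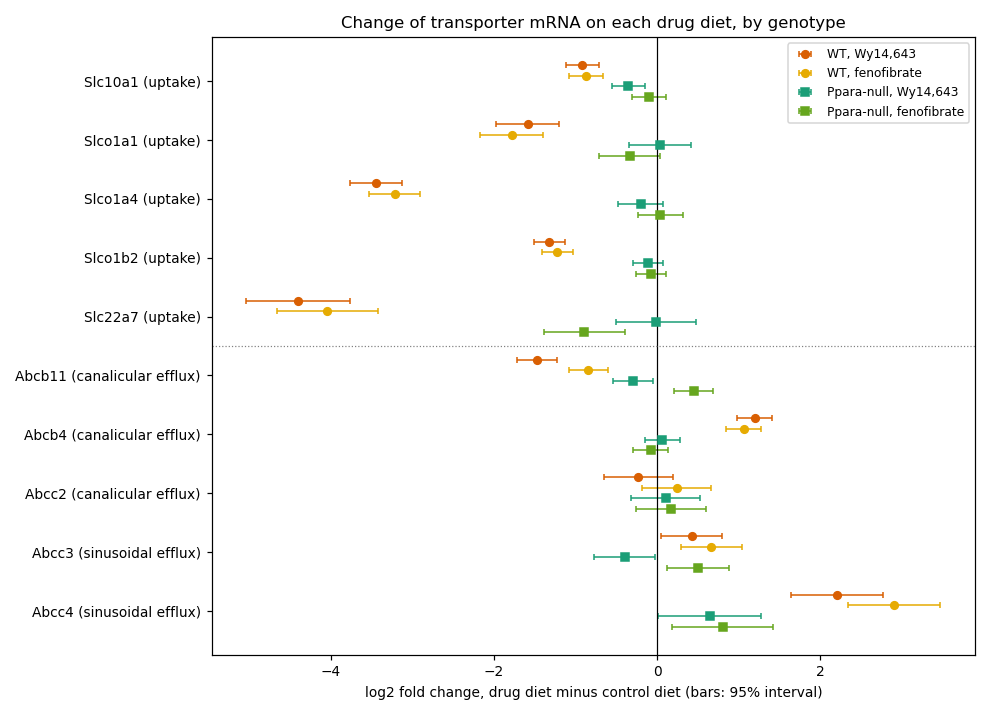
Log2 fold change of each member on a drug diet against the control diet of the same genotype, with 95% intervals from the fit of 18 libraries; circles are WT and squares Ppara-null, and the dotted line parts uptake from efflux. The 5 uptake carriers and Abcb11 lie left of 0 in WT on both diets, Abcb4 and Abcc4 lie right of 0, and the null intervals for Slco1a1, Slco1a4, Slco1b2, Abcb4 and Abcc2 cover 0 on both diets.

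The canalicular pumps did not move as a class. Abcb11 (BSEP, gene ID 27413), the bile salt export pump, stood at 121, 163 and 140.4 CPM in WT control. It stood at 53.7, 53.7 and 44.98 CPM with Wy and at 73.0, 88.7 and 74.9 CPM with fenofibrate. Both treated groups lay below the controls, and the Wy libraries lay below the fenofibrate ones. The falls were 2.78-fold with Wy (-1.48 ± 0.12, adjusted p = 1.1e-08) and 1.79-fold with fenofibrate (-0.84 ± 0.12, adjusted p = 1.3e-05). Under library totals the fenofibrate call was lost (-0.03, adjusted p = 0.87), at -0.85 relative to the median gene.

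Abcb11 also varied among the Ppara-null libraries. It stood at 96.2, 88.6 and 104 CPM on control, 79.6, 81.3 and 74.6 CPM on Wy and 142, 117 and 136 CPM on fenofibrate. The 3 null groups did not overlap, with Wy lowest and fenofibrate highest. Against the null controls the changes were -0.30 ± 0.12 with Wy (adjusted p = 0.27) and 0.45 ± 0.12 with fenofibrate (adjusted p = 0.058), neither of which passed. With the Mup loci left out of the scaling the fenofibrate value was 0.45 and passed (adjusted p = 0.046).

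Abcb4 (MDR2, gene ID 18670), the phosphatidylcholine flippase that supplies phospholipid to bile, stood at 71.8, 92.5 and 88.4 CPM in WT control. It stood at 194, 185 and 201 CPM with Wy and at 161, 189 and 178 CPM with fenofibrate. Every treated library was above every control. It rose 2.30-fold with Wy (1.20 ± 0.10, adjusted p = 2.8e-08) and 2.09-fold with fenofibrate (1.06 ± 0.10, adjusted p = 1.4e-07). The 9 Ppara-null libraries held 38.9 to 52.2 CPM, below all WT libraries and overlapping between diets.

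Abcc2 (MRP2, gene ID 12780), the canalicular pump for conjugated organic anions, was the member that differed least between groups. It stood at 99.2, 149 and 108 CPM in WT control, 107, 103 and 94.95 with Wy, and 116, 166 and 141 with fenofibrate. All 3 WT groups overlapped the control range, and neither change passed (-0.23 ± 0.20, 95% interval -0.65 to 0.19, adjusted p = 0.39, and 0.24 ± 0.20, -0.18 to 0.67, adjusted p = 0.37). Under library totals it was called higher on both diets (0.57 and 1.07). The 9 Ppara-null libraries lay between 75.4 and 159 CPM, with the widest spread on fenofibrate. The last part of Abcc2 overlaps the locus Gm10768 on the same strand, which held 46533 counts over all libraries, and no source used here says how such reads were divided.

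Of the sinusoidal pumps, Abcc4 rose on both diets and Abcc3 on fenofibrate. Abcc4 (MRP4, gene ID 239273), which exports bile acids and nucleotide analogues to blood, stood at 0.715, 0.832 and 0.742 CPM in WT control. It stood at 3.38, 3.95 and 3.24 CPM with Wy and at 4.25, 7.85 and 5.16 CPM with fenofibrate, from 372 to 748 counts a library against 64 to 81 in the controls. The groups did not overlap, and fenofibrate libraries all lay above the Wy libraries. It rose 4.62-fold with Wy (2.21 ± 0.27, adjusted p = 2.6e-06) and 7.52-fold with fenofibrate (2.91 ± 0.27, adjusted p = 8.8e-08). In Ppara-null livers it stood at 0.376, 0.473 and 0.669 CPM on control, 0.816, 0.964 and 0.578 on Wy and 0.682, 0.660 and 1.27 on fenofibrate. The null groups overlapped on Wy, and 1 of the fenofibrate libraries overlapped the control range, at 0.65 ± 0.30 (adjusted p = 0.34) and 0.81 ± 0.30 (adjusted p = 0.19).

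Abcc3 (MRP3, gene ID 76408), which returns glucuronides and bile acids to blood, stood at 81.3, 129 and 119.7 CPM in WT control. It stood at 145, 143 and 156 CPM with Wy and at 154, 194 and 176 CPM with fenofibrate. All 6 treated libraries were above the 3 controls. The change passed with fenofibrate (1.59-fold, 0.67 ± 0.18, adjusted p = 0.0066) and not with Wy (0.43 ± 0.18, adjusted p = 0.067). The Wy value passed by DESeq2 (0.44, adjusted p = 0.035), with the Mup loci left out (0.47) and under library totals (1.22). In Ppara-null livers Abcc3 stood at 93.8, 110 and 98.6 CPM on control, 66.3, 95.7 and 67.8 on Wy and 111, 139 and 179 on fenofibrate. The fenofibrate libraries lay just above the null controls without overlap, at 0.50 ± 0.18 (adjusted p = 0.18), and the Wy libraries at -0.40 ± 0.18 (adjusted p = 0.33).

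Of the 5 efflux members, 2 rose and 1 fell with Wy, where 20.2% of all tested genes were called higher and 19% lower. With fenofibrate 3 rose and 1 fell, where the shares were 19.3% and 17.6%. Their median log2 change was 0.43 and 0.67. Under library totals the 10 members split into 4 higher and 5 lower with Wy, where 68.1% of all tested genes were called higher and 3.2% lower, and into 4 higher and 4 lower with fenofibrate, where the shares were 70.2% and 2.77%. Markers of bile duct cells, which also carry some of these pumps, stayed low: of 7 markers, 5 passed the filter, 1 rose and 0 fell with Wy, 0 rose and 1 fell with fenofibrate, and Sctr had 0 counts in all libraries. Their summed level was 11.3 to 12.01 CPM in WT control, 7.42 to 13.3 with Wy and 6.02 to 8.73 with fenofibrate. Kupffer cell markers fell in 6 of 7 tested cases on each diet, against 19% (Wy) and 17.6% (fenofibrate) of all tested genes. Summed, they stood at 59.8 to 62.6 CPM in WT control, 34.4 to 36.7 with Wy and 34.3 to 44.5 with fenofibrate. The part of these cells in the pump values was not tested.

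The balance of uptake against efflux was taken in each library as the mean log2 CPM of the 5 uptake members less that of the 5 efflux members, a difference that no scaling of the library changes. It was 1.14, 0.98 and 1.102 in WT control, -1.69, -1.81 and -1.58 with Wy and -1.71, -2.31 and -1.90 with fenofibrate. Each treated library lay below every control. In Ppara-null livers it was 2.24, 2.16 and 2.03 on control, 1.93, 1.8396 and 2.21 on Wy and 1.67, 1.75 and 1.12 on fenofibrate. Every null library but fenofibrate 3 lay above all WT libraries, Wy overlapped the null control, and the fenofibrate libraries lay below it. The zero of this score depends on which genes are averaged and carries no meaning: against the canalicular members alone the WT control libraries stood at -0.32, -0.48 and -0.32, and against the sinusoidal members at 3.32, 3.17 and 3.23. As group means this was 1.07 ± 0.0832, -1.69 ± 0.113 and -1.98 ± 0.310 in WT, and 2.14 ± 0.110, 1.99 ± 0.192 and 1.51 ± 0.342 in Ppara-null livers (SD, n = 3), given as a description with no test.

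**Figure D3:**
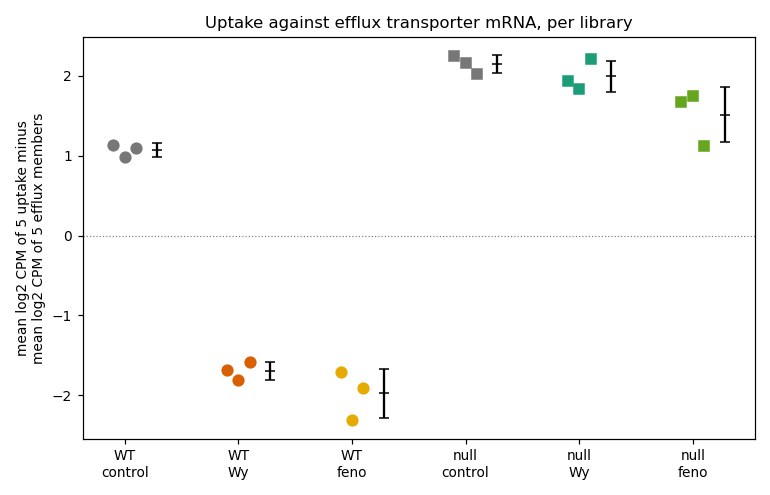
Mean log2 CPM of the 5 uptake members minus mean log2 CPM of the 5 efflux members in each of 18 libraries, with the group mean and SD beside the points (n = 3). The 6 treated WT libraries lie between -2.31 and -1.58 and the other 12 libraries lie between 0.98 and 2.24.

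Whether the drug response depended on Ppara was tested by the interaction of genotype and diet, the log2 change in WT minus that in Ppara-null livers. For Wy it passed for 9 of the 10 members, 3 higher and 6 lower in WT, against 14.1% and 14% of all tested genes called in those directions. For fenofibrate it passed for 8 members, 2 higher and 6 lower, against 11.6% and 10.7%. The difference was largest for Slc22a7 (-4.39 ± 0.38 with Wy and -3.15 ± 0.38 with fenofibrate) and Slco1a4 (-3.24 ± 0.20 and -3.26 ± 0.20). Among the pumps that rose it was 1.13 ± 0.14 and 1.14 ± 0.14 for Abcb4, and 1.56 ± 0.40 and 2.10 ± 0.40 for Abcc4. Abcc2 passed in neither (-0.34 ± 0.29 and 0.07 ± 0.28), and Abcc3 passed with Wy (0.82 ± 0.25, adjusted p = 0.022) but not with fenofibrate (0.16 ± 0.25, adjusted p = 0.69). The Abcc3 changes with Wy ran in opposite directions, 0.43 in WT and -0.40 in Ppara-null livers. Neither passed within its genotype (adjusted p = 0.067 and 0.33). Without single libraries the Abcc3 call with Wy was kept in 14 of 18 fits, with adjusted p up to 0.059. It was lost without WT control 1, Ppara-null control 2, Ppara-null Wy 1 or Ppara-null Wy 3. Slc10a1 had the smallest called differences (-0.57 ± 0.14 and -0.77 ± 0.14), and these did not keep their direction under library totals: with Wy the value was 0.58 and called higher (adjusted p = 0.035), and with fenofibrate it was 3e-04 and not called.

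Under library totals, where the median gene itself differed by 1.11 and 0.74, the interaction calls split into 5 higher and 2 lower with Wy, against 69.2% and 1.43% of all tested genes, and into 4 higher and 2 lower with fenofibrate, against 50.3% and 1.87%. Slco1a1 (-0.47 and -0.66), Slco1b2 (-0.06 and -0.38) and Abcb11 (-0.03 and -0.51) were then not called. Abcc2 was then called higher on both diets (0.80, adjusted p = 0.038, and 0.86, adjusted p = 0.037), as was Abcc3 on fenofibrate (0.92, adjusted p = 0.028). Relative to the median gene these values were -0.31 and 0.12 for Abcc2, 0.18 for Abcc3, and -0.52 and -0.73 for Slc10a1.

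Within Ppara-null livers 0 of the 10 members passed on Wy, where 0.133% of all tested genes were called higher and 0.105% lower. At an unadjusted p under 0.05 there were 4 members (Slc10a1, Abcb11, Abcc3 and Abcc4), against 14% of all tested genes, and DESeq2 called 1, Slc10a1 (-0.37, adjusted p = 0.018), against 2.48% of the genes it tested. On fenofibrate 0 passed, where 0.997% of all tested genes were called higher and 0.548% lower. At an unadjusted p under 0.05 there were 4 (Slc22a7, Abcb11, Abcc3 and Abcc4), against 15.2% of all tested genes. DESeq2 called 2, Slc22a7 (-0.90, adjusted p = 0.012) and Abcb11 (0.44, adjusted p = 0.012), against 4.07% of the genes it tested. In edgeR fits without a single library, Slc22a7 passed in 1 of 18, without Ppara-null fenofibrate 1 (-1.22, adjusted p = 0.014). Abcb11 passed in 3 of 18, without WT control 1 (0.45, adjusted p = 0.045), WT fenofibrate 2 (0.45, adjusted p = 0.044) or Ppara-null fenofibrate 2 (0.52, adjusted p = 0.022).

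On the control diet, loss of Ppara changed 4 members in the direction opposite to the drugs for 3 of them. Slco1a4 was 3.28-fold higher in Ppara-null than in WT livers (1.71 ± 0.14, adjusted p = 8.7e-08) and Slc22a7 1.74-fold higher (0.80 ± 0.24, adjusted p = 0.038). Abcb4 was 1.77-fold lower (-0.82 ± 0.10, adjusted p = 1.7e-05), and Abcb11 was 1.47-fold lower (-0.55 ± 0.12, adjusted p = 0.0035), the latter lower on the drug diets in WT too and not called under library totals (-0.23, adjusted p = 0.31). Libraries of these 4 did not overlap between genotypes, but neither did those of Slc10a1, Slco1a1 and Abcc4, which were not called. The share of all tested genes without overlap was not counted. The 2 higher and 2 lower calls stand against 4.28% and 5.66% of all tested genes. Under library totals, where the median gene differed by 0.32, there were 3 higher, Slc10a1 (0.52) among them, and 1 lower, against 17.1% and 2.11%. The Slc22a7 call was lost without WT control 1, WT control 3, Ppara-null control 1 or Ppara-null control 3 (0.67 to 0.78 in those fits, adjusted p up to 0.16). Slco1a4 is female-predominant in mouse liver, and of 12 tested female-biased genes 6 were higher and 0 lower in Ppara-null control livers, with a summed level of 328 to 541 CPM against 134 to 285 CPM in WT. Xist had 1 to 4 counts in each of these 6 libraries. Of the 10 male-biased genes, Slco1a1 among them, 0 were higher and 3 lower in Ppara-null controls. Their summed level was 3236 to 3578 CPM there against 3111 to 3643 CPM in WT control, and their median log2 change was -0.04. Slco1a1 itself was at 0.24 ± 0.18 and not called. The part of the female-biased shift in the value of Slco1a4 was not tested. The WT control libraries are shared with the drug comparisons, so the opposite directions are given side by side and not as support for each other.

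The agonists were set against each other within a genotype, at doses that differ (0.1% against 0.5% of the diet), so the values describe these diets and not the compounds at equal dose. In WT, 1 of the 10 members passed, Abcb11, lower with Wy than with fenofibrate (-0.64 ± 0.12, adjusted p = 0.011), where 0.323% of all tested genes were called higher and 0.576% lower. Leaving out WT Wy 3, the library with Xist counts, ended that call (-0.55, adjusted p = 0.085), as did leaving out WT fenofibrate 2 (-0.54, adjusted p = 0.066). For the 5 uptake carriers the difference was between -0.36 ± 0.35 (Slc22a7, 95% interval -1.09 to 0.38) and 0.20 ± 0.18 (Slco1a1, -0.18 to 0.58), so these intervals leave room for differences of that size. Abcc4 was lower with Wy in every library (-0.70 ± 0.24, 95% interval -1.20 to -0.21) without passing over all genes (adjusted p = 0.20). In Ppara-null livers Abcb11 (-0.75 ± 0.12, adjusted p = 0.0017) and Abcc3 (-0.90 ± 0.18, adjusted p = 0.010) were lower with Wy than with fenofibrate, where 1.30% of all tested genes were called higher and 1.59% lower. The Abcc3 call was lost without Ppara-null Wy 1 (-0.80, adjusted p = 0.063).

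Of the uptake members Slco1a4 varied most between the 6 groups and of the efflux members Abcb4, by the F statistic of the fit. Over the 18 libraries, which share the same groups, the genes most like Slco1a4 in log2 CPM were Alcam (Pearson r = 0.992), Sdr9c7 (0.991) and Cyp2a5 (0.988). Alcam encodes a cell adhesion molecule and Cyp2a5 a cytochrome P450 that oxidises coumarin. The genes most like Abcb4 were Hsd17b4 (0.993), Slc27a2 (0.993) and Retsat (0.992). Hsd17b4 is the peroxisomal bifunctional enzyme, Slc27a2 a very long-chain acyl-CoA synthetase and Retsat retinol saturase. These are descriptions, since any gene that follows the groups gives a high r. Among the members, Slco1a4 and Abcb4 ran opposite to each other (r = -0.98), and Abcc2 was within -0.27 and 0.43 of every other member.

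Other uptake and import carriers in WT liver did not share 1 direction. Of 15 tested, 4 rose and 7 fell with Wy, where 20.2% of all tested genes were called higher and 19% lower, and 4 rose and 6 fell with fenofibrate, where the shares were 19.3% and 17.6%. The carnitine carrier Slc22a5 (OCTN2) stood at 11.4 ± 0.204 CPM in control, 128 ± 4.27 with Wy and 104 ± 6.21 with fenofibrate (SD, n = 3), a log2 change of 3.49 ± 0.14 and 3.20 ± 0.14. The monocarboxylate carrier Slc16a1 rose by 2.31 ± 0.11 and 2.04 ± 0.11, and Slc27a2 by 1.14 ± 0.09 and 1.06 ± 0.09. Slc27a5, the bile acid CoA ligase of hepatocytes, fell from 329 ± 20.9 CPM to 163 ± 6.602 and 161 ± 3.22 CPM (-1.01 ± 0.09 and -1.03 ± 0.09). Slc27a5 and the acyl-CoA synthetase Slc27a2 are enzymes that these counts include among the carriers. Among these carriers are other Slco genes. With Wy in WT, Slco1a5 (-2.15 ± 0.43), Slco2a1 (-0.99 ± 0.16) and Slco2b1 (-0.58 ± 0.10) were called lower. Slco1a6 (-0.58 ± 1.00) and Slco3a1 (-0.37 ± 0.20) were not called. In Ppara-null control livers Slc22a5 was lower than in WT (-1.56 ± 0.14), as was Slc27a2 (-0.51 ± 0.09). In Ppara-null livers 0 of these 15 passed on Wy, where 0.133% of all tested genes were called higher and 0.105% lower. On fenofibrate 1 rose and 1 fell there, where the shares were 0.997% and 0.548%.

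Of 12 tested other efflux transporters 3 rose and 3 fell with Wy, and 4 rose and 3 fell with fenofibrate, against the same shares of all genes (20.2% and 19%, 19.3% and 17.6%). Abcg2 (BCRP), a canalicular pump for sulphate conjugates and drugs, rose from 52.2 ± 0.495 CPM to 178 ± 4.99 and 154 ± 19.1 CPM (1.77 ± 0.09 and 1.56 ± 0.09), and in Ppara-null controls it stood at 27.03 ± 2.70 CPM, below WT (-0.95 ± 0.09, adjusted p = 8.4e-07). The P-glycoproteins Abcb1a (1.47 ± 0.24 and 1.31 ± 0.24) and Abcb1b (1.75 ± 0.26 and 1.28 ± 0.26) rose at low levels, under 10 CPM. Abcc6, a sinusoidal pump whose human gene is altered in pseudoxanthoma elasticum, fell (-1.79 ± 0.19 and -1.38 ± 0.19) and was higher in Ppara-null than in WT controls (1.05 ± 0.19, adjusted p = 0.00078). In Ppara-null livers 0 of the 12 passed on either diet, near the shares of all tested genes there. Those were 0.133% higher and 0.105% lower on Wy, and 0.997% and 0.548% on fenofibrate.

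**Figure D4:**
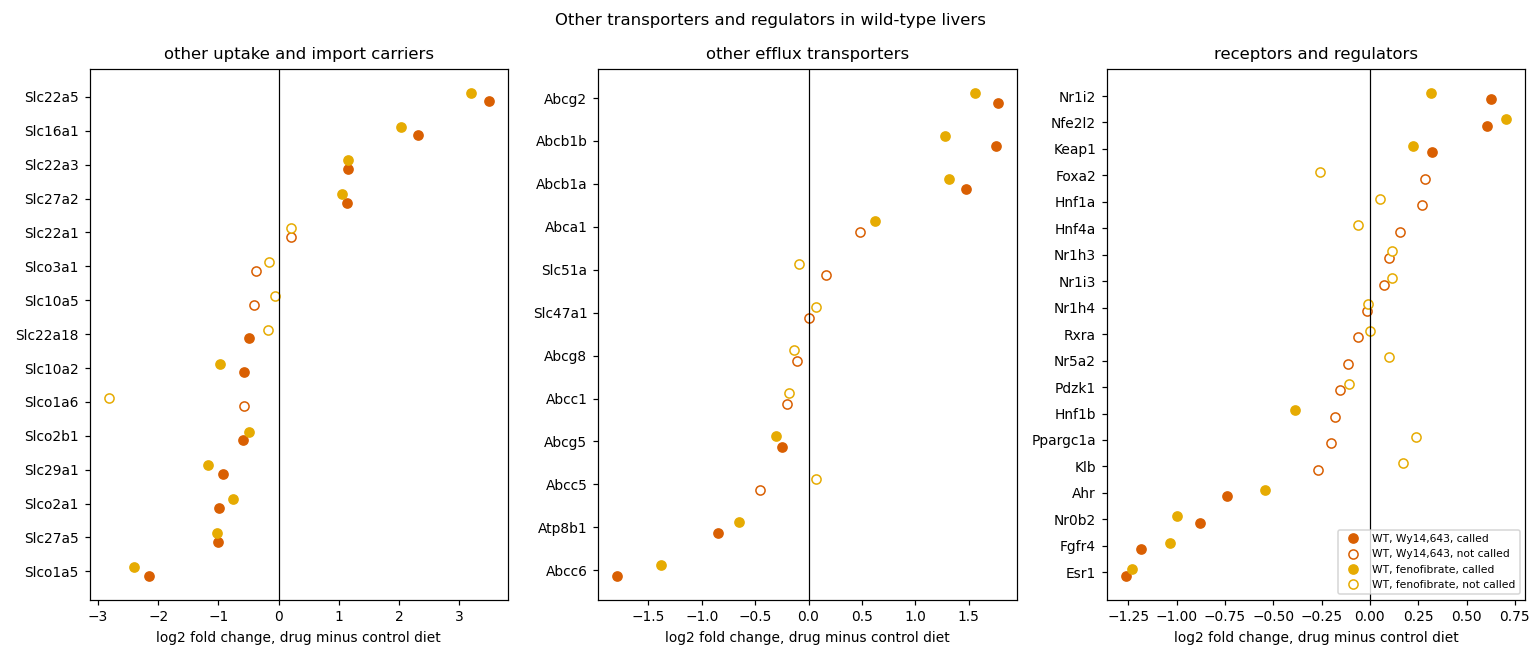
Log2 fold change in WT livers with Wy and with fenofibrate against control, for the 15 other uptake and import carriers, 12 other efflux transporters and 19 receptors and regulators that were tested; filled circles passed at an adjusted p under 0.05 over all genes and open circles did not. Slc22a5 has the highest value of the first panel, Abcg2 of the second, and Nr1h4, Nr1i3 and Hnf4a are open on both diets.

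Of 19 tested regulators of bile acid transport, 3 rose and 4 fell with Wy, against 20.2% and 19% of all tested genes, and 3 rose and 5 fell with fenofibrate, against 19.3% and 17.6%. These counts are near the shares over all genes. The bile acid receptor Nr1h4 (FXR) stood at 33.3 ± 2.86 CPM in WT control, 33 ± 1.44 with Wy and 33.1 ± 0.571 with fenofibrate (-0.01 ± 0.09 in each), and at 26.9 ± 1.15 in Ppara-null controls (-0.31 ± 0.09, adjusted p = 0.039). Nr0b2 (SHP), a repressor downstream of FXR, fell from 11.98 ± 1.62 CPM to 6.52 ± 1.04 and 5.99 ± 2.81 CPM (-0.88 ± 0.25, adjusted p = 0.0097, and -1.00 ± 0.25, adjusted p = 0.0043). Nfe2l2 (NRF2) rose (0.60 ± 0.10, adjusted p = 7.0e-05, and 0.70 ± 0.10, adjusted p = 1.3e-05), as did Nr1i2 (PXR, 0.63 ± 0.11, adjusted p = 0.00018, and 0.32 ± 0.11, adjusted p = 0.032). Nr1i3 (CAR, 0.08 ± 0.13 and 0.11 ± 0.13), Hnf4a (0.15 ± 0.12 and -0.06 ± 0.12) and Ppara (0.26 ± 0.18 and 0.33 ± 0.18) did not pass in WT. Fgfr4, the hepatocyte receptor of the ileal hormone FGF15, fell by 1.19 ± 0.09 and 1.04 ± 0.09 on the log2 scale, and the oestrogen receptor Esr1 fell by 1.26 ± 0.20 and 1.23 ± 0.20. The interaction passed on both diets for Nfe2l2, Fgfr4 and Esr1. For Nr1i2 it passed with Wy (0.44 ± 0.16) and not with fenofibrate (0.13 ± 0.16). It passed on neither diet for Nr0b2 (-0.33 ± 0.35 and -0.53 ± 0.35), which changed by -0.55 ± 0.25 and -0.465 ± 0.25 in Ppara-null livers without passing. In Ppara-null livers 0 of the 19 passed on either diet, near the shares of all tested genes there. Those were 0.133% higher and 0.105% lower on Wy, and 0.997% and 0.548% on fenofibrate.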

How the data were processed

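Liver polyadenylated RNA was sequenced from TruSeq Stranded mRNA libraries, per the labels' protocols. The mm10 build, TopHat2 2.0.8, Picard 1.84, Trimmomatic 0.30 and bcl2fastq 2.17 are named in the submitters' processing notes. The deposited files hold raw read counts per locus, per the file headers. No source used here names the counting tool or its strand and overlap settings, so paralogous Slco genes may share reads. Of 52463 loci, 21364 without a gene identifier (0.604% to 1.54% of counts) were left out, as were 12 blank or total rows and 5 read columns of no sample in this series.

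Counts were fitted with edgeR 4.0.16 (R 4.3.3), with filterByExpr, TMM and 1 quasi-likelihood model of 18 libraries in 6 groups (12 residual degrees of freedom, common biological coefficient of variation 0.140). Each adjusted p is from its F-test with Benjamini-Hochberg adjustment over 14241 genes, at a threshold of 0.05, unless DESeq2 1.42.0 is named. The fitted fold changes use a prior count of 0.125, and log2 CPM a prior count of 0.5. Standard errors are |log2 fold change| divided by √F. The fit was tested on simulated data before use. With 3 against 3 libraries a permutation test cannot go below 0.1, so p-values rest on the spread between pools fitted across genes, and the labels do not say whether pools were prepared apart.

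Replicate numbers did not pair libraries: the deviations of 45 same-numbered pairs correlated at -0.203 to 0.157. Of each other list, the called genes among the 4 smallest p in either WT drug comparison were named, plus Nr1h4, Nr0b2, Nr1i2, Nr1i3, Hnf4a, Nfe2l2 and Ppara. The Slco genes among the other uptake carriers were also named, for Wy in WT. The members and lists were chosen with earlier results of these data known.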

Additional observations from a re-analysis of the deposited data

Results flagged for a closer look

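The genotype and diet interaction passed for 17 member values, which means that the log2 response in WT less that in Ppara-null livers differed from 0 in the fit of 18 libraries. With Wy the differences were -0.57 for Slc10a1, -1.62 for Slco1a1, -3.24 for Slco1a4, -1.21 for Slco1b2, -4.39 for Slc22a7 and -1.18 for Abcb11, and 1.13 for Abcb4, 0.82 for Abcc3 and 1.56 for Abcc4. With fenofibrate they were -0.77 for Slc10a1, -1.45 for Slco1a1, -3.26 for Slco1a4, -1.14 for Slco1b2, -3.15 for Slc22a7 and -1.29 for Abcb11, and 1.14 for Abcb4 and 2.10 for Abcc4. The adjusted p of these edgeR tests ran from 9.8e-10 to 0.022. Of all tested genes 14.1% were called higher and 14% lower with Wy, and 11.6% and 10.7% with fenofibrate. Under library totals Slc10a1 with Wy was called higher (0.58) and Slc10a1 with fenofibrate was not called. Slco1a1, Slco1b2 and Abcb11 were then called on neither diet. Groups of 3 libraries were not screened for outlying samples.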

How the results depend on the processing

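Counts of called members kept within 1.5 times of the reported value under DESeq2 size factors and under a replicate block, in all 9 comparisons. The block gave 9 called members with Wy and 9 with fenofibrate in WT, and made 1 further gene value pass, Abcc3 with Wy (0.45). Library totals gave 3 called members with Wy and 1 with fenofibrate in Ppara-null livers, 0 between drugs in WT and 4 between drugs in Ppara-null livers. The shares of all tested genes called in these comparisons under library totals were not counted, so these counts describe the setting and not the members. In Ppara-null livers the median gene itself then moved by -0.33 with Wy and by -0.39 between drugs. Library totals also turned Abcc2 with Wy in WT (0.57) and the interactions of Slc10a1 (0.58 with Wy, 3e-04 with fenofibrate) and Abcc2 with Wy (0.80). None of these turned relative to the median gene (-0.22, -0.52, -0.73 and -0.31). In Ppara-null livers on fenofibrate the count was 1 with the Mup loci left out, 2 without a filter, 2 by DESeq2 and 0 to 1 without single libraries, and on Wy 1 by DESeq2. Between drugs it was 0 to 1 without single libraries in WT, and in Ppara-null livers 1 to 3 without single libraries and 1 with only those groups in the fit. The change of uptake minus efflux was -2.77 with Wy and -3.05 with fenofibrate in WT. By medians it was -1.55 and -2.28, against canalicular members -2.17 and -2.40, against sinusoidal members -3.66 and -4.02, and without Slc22a7 -2.25 and -2.59. By medians it turned to 0.16 with Wy in Ppara-null livers and was 0.40 between genotypes, and against sinusoidal members it was -0.91 with fenofibrate in Ppara-null livers. The cause of these shifts was not tested. Among WT livers, Slc22a7 on the drug diets (36 to 75 counts a library) and Abcc4 on control (64 to 81) rest on the fewest counts. Abcc4 was as low in Ppara-null livers, at 41 to 65 counts on control, 49 to 92 on Wy and 63 to 147 on fenofibrate. Its interactions rest on these too.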
